A study of Rattus norvegicus with 12 samples.

Results

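The stathmin family was followed as 4 genes, Stmn1, Stmn2, Stmn3 and Stmn4, chosen by gene symbol from RNA-seq tables that list 16468 genes each. All 4 were present, with 1 row each in both tables. The cells were HCN cells, a line of adult rat hippocampal neural stem cells, and all groups were electroporated. In the quiescent condition (iQNP, FGF2 with BMP4) the tables compare 4 libraries with a REST knockdown shRNA vector with 2 libraries with empty vector, and in the proliferative condition (TAP, FGF2 only) again 4 with 2. One hairpin against REST was used, and each table gives 1 value per gene and group, so no spread between libraries, no error and no test stands behind any value below. The values are FPKM, the authors' estimate of fragments of a transcript scaled to its length and to the mapped fragments of the library, so levels of different genes are set side by side per length.

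Stathmins bind free tubulin and promote the shrinkage of microtubules, and phosphorylation by kinases of the cell cycle and of growth signalling lowers this activity. Stmn1 (stathmin, also Op18) is cytosolic and is abundant in dividing cells. Stmn2 (SCG10), Stmn3 (SCLIP) and Stmn4 (RB3) carry a membrane anchor and are mostly neuronal, and rat Stmn2 is a gene in which the silencer element bound by the repressor REST was defined.

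Stmn1, which lies on chromosome 5 (153226422 to 153232084 in rn4), spans 5662 bases. Stmn2 is on chromosome 2 (95284902 to 95332686) and spans 47784 bases, Stmn3 on chromosome 3 (170446807 to 170454900) spans 8093 bases, and Stmn4 on chromosome 15 (45779351 to 45797949) spans 18598 bases. RefSeq promoter windows were at hand only for Stmn1 and Stmn3, the stathmins with the highest levels, and the 250 bases before each gene start are shown. Both genes also passed the threshold of the comparisons below in at least 1 table (Stmn3 in both, Stmn1 in TAPs only and not with the same sum of FPKM). Capitals mark matches, on either strand, to the GC box GGGCGG, the E-box motif CACGTG or the CCAAT box, which were chosen after the sequences were seen. The first window is at chr5:151964929-151965178 (plus strand) and the second at chr3:188802495-188802744 (minus strand), both in GRCr8.
Stmn1: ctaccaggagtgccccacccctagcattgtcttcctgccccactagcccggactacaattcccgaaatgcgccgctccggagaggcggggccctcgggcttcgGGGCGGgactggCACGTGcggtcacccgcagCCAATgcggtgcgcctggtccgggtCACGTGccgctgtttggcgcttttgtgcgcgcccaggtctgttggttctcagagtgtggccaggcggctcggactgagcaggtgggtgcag
Stmn3: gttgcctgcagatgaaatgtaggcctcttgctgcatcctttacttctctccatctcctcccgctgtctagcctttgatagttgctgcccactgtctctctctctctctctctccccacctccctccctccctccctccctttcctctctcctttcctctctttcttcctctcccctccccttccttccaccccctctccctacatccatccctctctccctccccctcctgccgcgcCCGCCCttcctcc

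The Stmn1 window had 67.6% G or C with 22 CG dinucleotides, against a median of 51.2% and 5 over 33469 windows. Of all windows, 13.7% had at least as many CG dinucleotides. The Stmn1 window held 1 GC box, 2 E-boxes and 1 CCAAT box. The Stmn3 window was different in make-up, with 59.2% G or C, 4 CG dinucleotides and 84.0% C or T. Only 0.0269% of all windows had as large a share of C or T, a feature picked after the sequence was seen. It held 1 GC box, in its reverse complement, and no E-box or CCAAT box. None of the motif matches overlapped another. Of all windows, counted over the 300 bases that include 50 after the start, 33.1% held GGGCGG, 6.42% CACGTG and 37.5% CCAAT. The left part of the REST-binding element, CAGCACC (in 6.78% of windows), its right part GGACAG (21.7%) and the RE1 consensus that joins both (0.0538%) were not matched on either strand of the Stmn1 or Stmn3 window, and neither was TATAAA (14.2%). The study lists Stmn3 among REST targets common to iQNPs and TAPs, genes with REST-bound sites near their start and higher levels after knockdown. It searched further from the gene start than these windows reach, so the missing match holds only for the windows. Its knockdown values are those used here, so the listing is not separate support for the difference of Stmn3.

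As a check of the labels, Rest stood at 13.9 FPKM in knockdown iQNPs, against 48.7 in control iQNPs, and at 9.002 FPKM in knockdown TAPs, against 27.8 in control TAPs. Sox2 (172, 185, 220 and 278 FPKM in knockdown iQNPs, control iQNPs, knockdown TAPs and control TAPs) and Vim (3648, 3671, 1678 and 1220 FPKM) are 2 of the 6 stem cell markers listed. Of the others, Prom1 was under 1 FPKM in all groups and Hes1 had 24.3 FPKM in knockdown iQNPs, against 12.2 in control iQNPs, and 11.1 FPKM in knockdown TAPs, against 3.67 in control TAPs. In the group order given for Sox2, Nes had 87.7, 150, 89.6 and 99.8 FPKM and Fabp7 127, 130, 810 and 1011 FPKM. Between growth conditions Fabp7 thus went the opposite way to Vim. The endothelial markers summed to 0.146 to 0.404 FPKM, and the fibroblast and mural markers to 33.2 FPKM in knockdown iQNPs, against 13.3 in control iQNPs, and 2.02 FPKM in knockdown TAPs, against 0.713 in control TAPs, most of it from Tagln in iQNPs. Ribosomal protein genes took 24.3% of all FPKM in knockdown iQNPs, against 7.51% in control iQNPs, and 33.1% in knockdown TAPs, against 11.4% in control TAPs, so scaling enters the results below. Of 79 ribosomal protein genes, 1 was listed at 0 in knockdown iQNPs and 11 in control iQNPs, and 1 in knockdown TAPs and 13 in control TAPs. Rps12, for example, had 2223 FPKM in knockdown iQNPs and 2849 in knockdown TAPs and was listed at 0 in both controls. A value of 0 is therefore given only as listed.

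The 4 genes kept 1 order of level, Stmn1 above Stmn3 above Stmn4 above Stmn2, in each of the 4 groups. Stmn1 had 411 FPKM in knockdown iQNPs, 209 in control iQNPs, 628 in knockdown TAPs and 251 in control TAPs. Stmn3 had 187, 23.8, 176 and 29.4 FPKM in the same order of groups. Stmn4 had 13.5, 13.8, 12.1 and 7.65 FPKM. Stmn1 was thus the main stathmin transcript of this stem cell line in either growth condition, at a level above that of 97.1% to 98.7% of listed genes. Stmn2 had 0.0801 FPKM in knockdown iQNPs, was listed at 0 in control iQNPs, and had 0.248 FPKM in knockdown TAPs and 0.206 in control TAPs. With all its values under 1 FPKM, Stmn2 entered no comparison below, and 3 of the 4 genes did.

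**Figure D1:**
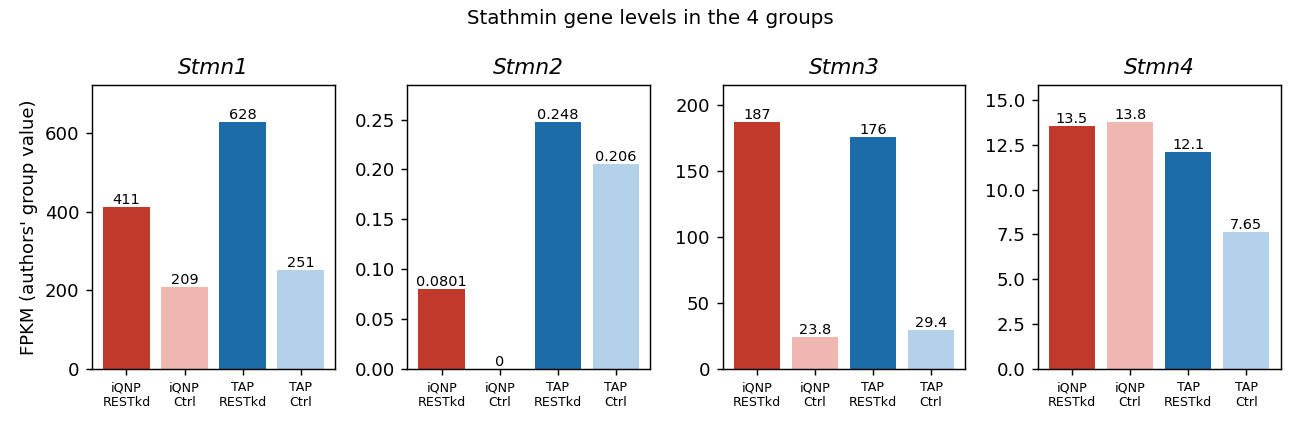
FPKM of each stathmin gene (y axis, a separate linear scale per gene) in knockdown and control iQNPs and in knockdown and control TAPs (x axis), where each bar is the authors' single value for a group and has no error bar. Stmn3 stands at 187 and 176 FPKM in the knockdown groups, against 23.8 and 29.4 in their controls, while Stmn2 stays under 1 FPKM in all groups.

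The summed level of the family was 611 FPKM in knockdown iQNPs, against 247 in control iQNPs, and 816 FPKM in knockdown TAPs, against 288 in control TAPs. Stmn3 made up 30.6% of that sum in knockdown iQNPs and 9.64% in control iQNPs, and 21.5% in knockdown TAPs and 10.2% in control TAPs. Stmn1 made up 67.2% in knockdown iQNPs and 84.8% in control iQNPs, and 77.0% in knockdown TAPs and 87.1% in control TAPs. These shares lie within 1 group's values and do not depend on how the groups were scaled.

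Knockdown in iQNPs asks which transcripts differ when REST is lowered in quiescent cells. Stmn3, a membrane-anchored neuronal stathmin, was 7.85-fold higher in knockdown iQNPs (187 against 23.8 FPKM). Stmn1, the stathmin of dividing cells, was 1.96-fold higher (411 against 209 FPKM). Stmn4, another neuronal form, was at 0.983 of the control level (13.5 against 13.8 FPKM). On the scale of log2(FPKM + 1), used from here on for differences, these were 2.92, 0.97 and -0.02. A gene was counted as past the threshold where this difference was at least 1 in size, among genes with at least 1 FPKM in either group, which is a threshold of size and not a test. By this count 1 of 3 stathmins, Stmn3, was higher in knockdown iQNPs, where 14.4% of all 9775 genes were (3.18% were lower, and 17.6% passed in either direction). Stmn1 missed the threshold by a small margin. Of the 9775 genes, 1.80% had a difference as high as that of Stmn3, 15.1% as high as that of Stmn1 and 51.8% as high as that of Stmn4. The median over the 3 stathmins was 0.97, beside 0.01 over all genes.

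The same comparison in TAPs addresses proliferating cells. Stmn3 was 5.98-fold higher in knockdown TAPs (176 against 29.4 FPKM), Stmn1 was 2.51-fold higher (628 against 251 FPKM), and Stmn4 was 1.58-fold higher (12.1 against 7.65 FPKM). The log2 differences were 2.54, 1.32 and 0.60. By the threshold 2 of 3 stathmins, Stmn1 and Stmn3, were higher in knockdown TAPs, where 15.4% of 9551 genes were (6.98% were lower, and 22.4% passed in either direction), and 2.29% of genes had a difference as high as that of Stmn3, 9.73% as high as that of Stmn1 and 26.1% as high as that of Stmn4. The median over the 3 stathmins was 1.32, beside 0.01 over all genes.

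Of 6 genes often used as constant controls, named after their values were seen, Gapdh, Rpl13a and Eef1a1 were past the threshold as higher in both tables, Tbp was past it as lower in TAPs, and Actb and Hprt1 were not past it. Gapdh, an enzyme of glycolysis, had 3891 FPKM in knockdown iQNPs, against 532 in controls (log2 difference 2.87), and 2549 in knockdown TAPs, against 418 in controls (2.61). The ribosomal protein gene Rpl13a had 3134 against 190.2 FPKM in iQNPs (4.04) and 3588 against 233 FPKM in TAPs (3.94). The translation factor gene Eef1a1 differed by 2.21 in iQNPs and 1.72 in TAPs. Actb, the cytoplasmic actin gene, differed by 0.09 and 0.48, Hprt1 by 0.06 and -0.12, and Tbp by -0.52 and -1.09. The difference of Stmn3 was thus close to that of Gapdh in both tables and smaller than that of Rpl13a, and the part of library make-up in it was not tested.

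**Figure D2:**
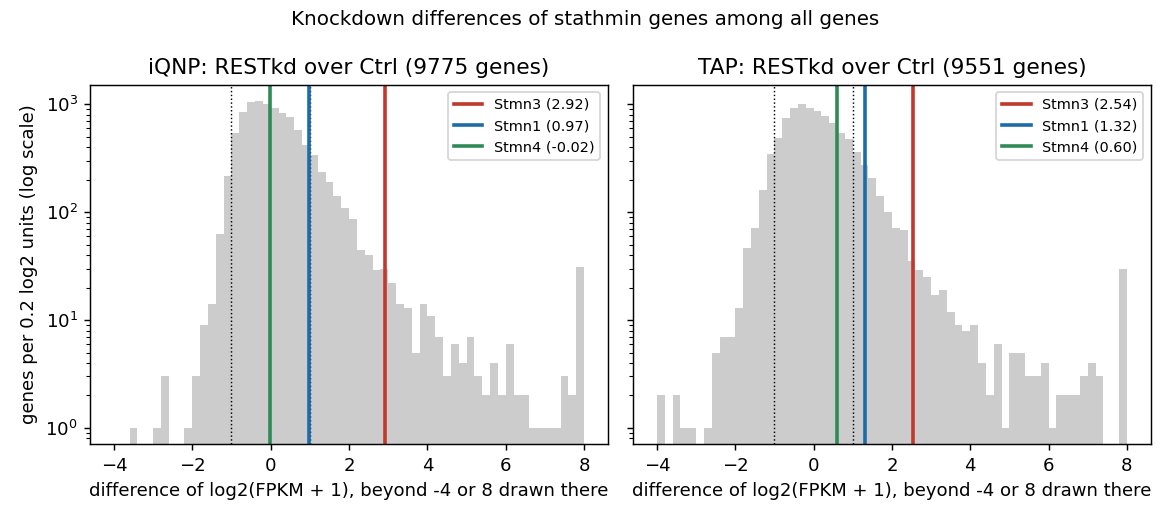
Number of genes (y axis, log scale) by difference of log2(FPKM + 1) between knockdown and control (x axis, log2 units) in iQNPs (left) and TAPs (right), with vertical lines at Stmn1, Stmn3 and Stmn4 and dotted lines at the threshold of 1 in either direction. Stmn3 (2.92 and 2.54) lies in the upper tail of both distributions, and Stmn4 (-0.02 and 0.60) lies within their main body.

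The 2 tables share no library, and their knockdown differences can be set side by side. The difference in iQNPs minus that in TAPs was 0.38 for Stmn3, -0.35 for Stmn1 and -0.62 for Stmn4. Of 9352 genes with at least 1 FPKM in either group of both tables, 30.5% had a difference between conditions as large in size as that of Stmn3, 33.8% as that of Stmn1 and 12.2% as that of Stmn4. Stmn3 was past the threshold as higher in both tables, as were 11.7% of those genes. None of these differences between conditions was tested.

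Scaling moved the sizes but not the order of the 3 genes. With both groups set to the same sum of FPKM, the difference of Stmn3 was 2.40 in iQNPs and 1.94 in TAPs and stayed past the threshold. Stmn1 then stood at 0.44 in iQNPs and 0.71 in TAPs, below it. Stmn4 stood at -0.51 in iQNPs and 0.04 in TAPs. This scaling lowers the log2 ratio of every gene by the same amount (a shift of -0.53 in iQNPs and -0.61 in TAPs before the pseudocount of 1, which makes it smaller for low genes), and under it 767 genes were higher and 2016 lower in knockdown iQNPs, against 1412 and 311 as deposited, and 661 and 2452 in knockdown TAPs, against 1470 and 667. The median gene did not move in the deposited values, as given above.

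**Figure D3:**
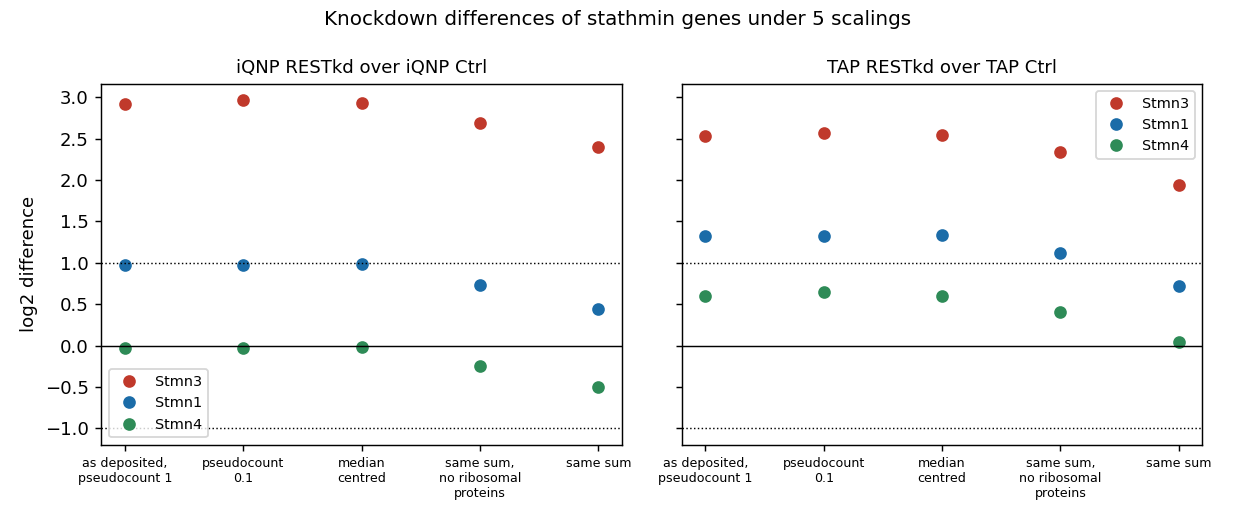
Log2 difference between knockdown and control (y axis, log2 units) of Stmn3, Stmn1 and Stmn4 in iQNPs (left) and TAPs (right) under 5 settings of scaling or pseudocount (x axis), with dotted lines at 1 and -1. Stmn3 stays above 1 throughout, at 1.94 to 2.97, while Stmn1 falls below 1 in TAPs only with the same sum of FPKM (0.71) and lies below 1 in iQNPs in each case.

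The knockdown difference moved with the span of a gene over all genes, and Stmn3, past the threshold in both tables, and Stmn1, past it in TAPs only, are short. Among genes spanning under 10000 bases, the class of Stmn1 and Stmn3, 30.0% were past the threshold as higher in knockdown iQNPs and the median difference was 0.49. In TAPs these values were 28.5% and 0.45. Among genes of 10000 to 50000 bases, the class of Stmn4 and Stmn2, 11.1% were higher in iQNPs (median 0.03) and 13.2% in TAPs (median 0.03). Over 50000 bases, 3.24% were higher in iQNPs (median -0.47) and 4.60% in TAPs (median -0.33). Stmn3 lies above the median of its class by more than 2 log2 units in each table, and Stmn1 by less than 1. The part of gene span in these differences was not tested. RefSeq (GRCr8) also names 4 stathmin-like pseudogenes, Stmnl-ps1 to Stmnl-ps4, with no parent gene given and no row in the tables, so how far reads were split between them and a stathmin gene is uncertain.

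**Figure D4:**
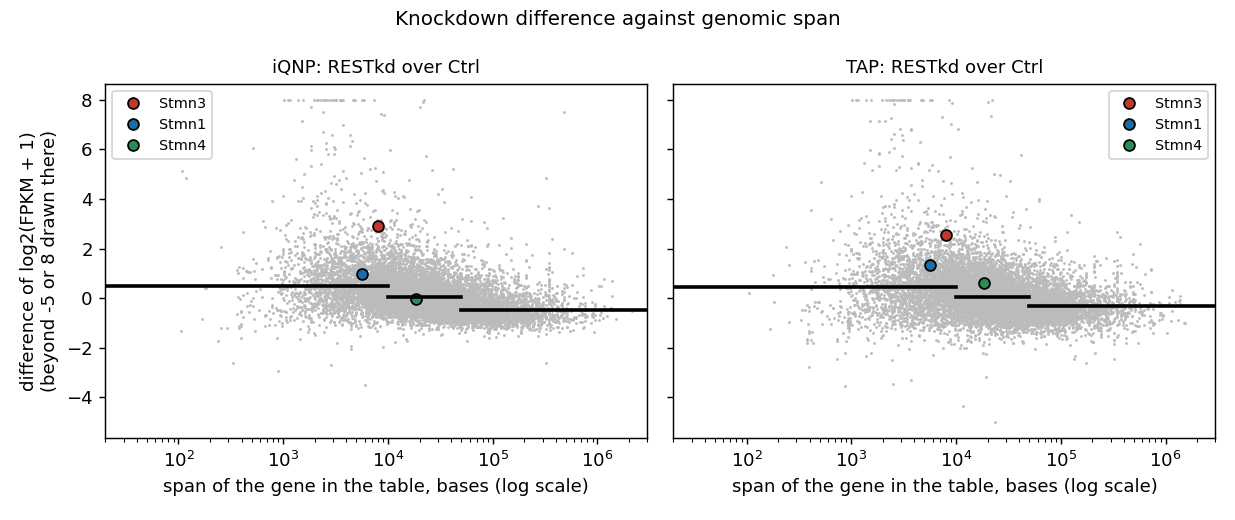
Difference of log2(FPKM + 1) between knockdown and control (y axis, log2 units) against the span of each gene (x axis, bases on a log scale) in iQNPs (left) and TAPs (right), with grey points for all genes, coloured points for the stathmins and black bars for the median of genes under 10000, from 10000 to 50000 and over 50000 bases. The median falls with span, at 0.49, 0.03 and -0.47 in iQNPs, and Stmn3 lies far above the bar of its class.

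Between growth conditions no stathmin passed the threshold. The values come from a separate table for each condition, and whether both were normalised together is not given in the sources used here, so levels across them are set side by side with that limit, and these comparisons use the same group values as the knockdown comparisons. Stmn1 had 209 FPKM in control iQNPs, against 251 in control TAPs (log2 difference -0.26), and 411 in knockdown iQNPs, against 628 in knockdown TAPs (-0.61). Stmn3 had 23.8 FPKM in control iQNPs, against 29.4 in control TAPs (-0.29), and 187 in knockdown iQNPs, against 176 in knockdown TAPs (0.09, and -0.15 with the same sum of FPKM without ribosomal protein genes). Stmn4 had 13.8 FPKM in control iQNPs, against 7.65 in control TAPs (0.77), and 13.5 in knockdown iQNPs, against 12.1 in knockdown TAPs (0.15, and -0.07 with the same sum of FPKM without ribosomal protein genes). None of the 3 passed the threshold in controls, where 10.8% of 9654 genes were higher and 6.51% lower in iQNPs (17.3% in all), or in knockdown cells, where 9.66% of 9745 genes were higher and 4.18% lower (13.8% in all). Of the proliferation genes, 5 of 9 were lower in control iQNPs (median -1.04) and 6 of 9 lower in knockdown iQNPs (median -1.27), relative to the matching TAPs. After knockdown, 0 of the 9 were past the threshold in iQNPs (median 0.05). In TAPs 1 was lower (median of the list 0.23), the topoisomerase gene Top2a. It had 172 against 346 FPKM in TAPs, a call lost with differences centred on the median gene. In iQNPs Top2a missed the threshold by a small margin (33.1 against 65.8 FPKM, -0.97). Its call in TAPs only is thus not read as a difference between conditions. Ccna2 (-0.98 in iQNPs and -0.94 in TAPs) and Cdk1 (0.93 and 0.99) also fell just short, in opposite directions. Beside these counts, 17.6% of all genes passed in either direction in iQNPs and 22.4% in TAPs. The medians of the list in knockdown against control turned to -0.46 in iQNPs and -0.37 in TAPs with the same sum of FPKM.

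Stathmins act on tubulin, and the alpha- and beta-tubulin genes had 3 of the 10 that reached 1 FPKM higher and 0 lower in each knockdown comparison, with a median of 0.69 in iQNPs and 0.48 in TAPs. This share is that of all genes spanning under 10000 bases (30.0% in iQNPs and 28.5% in TAPs), the class of all 10, beside 14.4% and 15.4% of all genes, so it is not a result about tubulins. The 3 were Tubb3, the neuronal beta-tubulin recognised by the Tuj1 antibody (126 FPKM in knockdown iQNPs against 58.4 in controls, and 58.9 in knockdown TAPs against 21.4), Tubb2a (212 against 104 FPKM, and 141 against 56.7) and Tuba1c (5.25 against 0.372 FPKM, and 3.80 against 0.546). With the same sum of FPKM, 1 stayed past the threshold in each table, and the median was 0.21 in iQNPs and -0.13 in TAPs. Tubulin genes are near-identical in parts, so their values are uncertain.

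Genes with the opposite effect on microtubules passed the threshold in both directions. Of 17 microtubule stabilisers and end-binding proteins, 0 were higher and 2 lower in knockdown iQNPs (median -0.42), and 2 were higher and 1 lower in knockdown TAPs (median -0.25). Over all genes, 14.4% were higher and 3.18% lower in iQNPs, and 15.4% were higher and 6.98% lower in TAPs. The dendritic stabiliser Map2 had 47.9 FPKM in knockdown iQNPs, against 110.5 in controls, and 48.9 in knockdown TAPs, against 102 in controls. Map1b, which stabilises axonal microtubules, had 92.3 FPKM in knockdown iQNPs, against 214 in controls, and 104 in knockdown TAPs, against 169 in controls, below the threshold in TAPs. In TAPs the higher ones were Tppp3 (31.4 against 14.2 FPKM) and the end-binding protein gene Clip2 (122 against 55.1 FPKM). Both dropped below the threshold with the same sum of FPKM, where 8 of the 17 were lower in iQNPs and 4 in TAPs. Map1b, Map2 and Clip2 span 93120, 81619 and 63797 bases, in the longest class above, as do most of the 17. The medians of that class were -0.47 in iQNPs and -0.33 in TAPs, so the list is not read as a result about stabilisers.

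Other genes that take microtubules apart were below the threshold. Of 8 depolymerising kinesins and severing enzymes, such as the katanin gene Katna1 and the spastin gene Spast, 0 were past the threshold in either knockdown comparison. Their medians were -0.34 in iQNPs and -0.40 in TAPs. Over all genes, 17.6% were past the threshold in either direction in iQNPs and 22.4% in TAPs. At these shares few of 8 genes would pass. Katna1 had 24.3 FPKM in knockdown iQNPs, against 29.1 in controls, and 22.8 in knockdown TAPs, against 30.6 in controls. With the same sum of FPKM 2 of the 8 were lower in each table. Some of the 8, such as Spast (58691 bases), are in the longest class above. The medians of that class were -0.47 in iQNPs and -0.33 in TAPs. Others, such as Katna1 (41628 bases), are not in it. The list is not read as a result about these enzymes.

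Among 14 kinases and phosphatases known to act on stathmins, with the Cdk5 activator Cdk5r1, 3 were higher and 1 lower in knockdown iQNPs (median 0.11), and 3 higher and 0 lower in knockdown TAPs (median 0.30). Of all genes 14.4% were higher in iQNPs and 15.4% in TAPs, and 3 of 14 is near these shares. Ppp2ca, the catalytic subunit of protein phosphatase 2A, had 109 FPKM in knockdown iQNPs, against 24.7 in controls, and 112 in knockdown TAPs, against 30.8 in controls. Ppp1ca, of protein phosphatase 1, had 468 against 178 FPKM in iQNPs and 435 against 155 FPKM in TAPs. The neuronal kinase gene Cdk5 had 90.4 against 30.7 FPKM in iQNPs and 60.3 against 22.1 FPKM in TAPs. Mapk10, the neuronal Jun kinase, was the lower one in iQNPs (12.8 against 26.6 FPKM), a call lost with differences centred on the median gene, and had 3.69 against 8.25 FPKM in TAPs. With the same sum of FPKM 2 were higher and 3 lower in iQNPs, and 1 was higher and 3 lower in TAPs.

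Neuronal markers did not move in 1 direction beside the stathmins. Of 8 neuron markers, 2 were higher and 2 lower in knockdown iQNPs, and 3 higher and 2 lower in knockdown TAPs. Over all genes, 14.4% were higher and 3.18% lower in iQNPs, and 15.4% were higher and 6.98% lower in TAPs. The median of the list was 0.18 in iQNPs and 0.705 in TAPs, beside 0.01 over all genes in each. Its summed level was 239 FPKM in knockdown iQNPs, against 211 in control iQNPs, and 172 FPKM in knockdown TAPs, against 159 in control TAPs. Snap25, a protein of synaptic vesicle fusion, was higher in both (28.9 against 5.99 FPKM in iQNPs, 21.3 against 3.58 FPKM in TAPs), while Elavl4, a neuronal RNA-binding protein, was lower in both (3.60 against 9.30 FPKM, and 4.71 against 11.3 FPKM). The immature neuron marker Dcx had 6.54 against 8.21 FPKM in iQNPs and 3.93 against 2.33 FPKM in TAPs. Tubb3, Map2 and Dcx of this list also stand in the microtubule lists. The lower markers in each table were Elavl4 (95939 bases) and Map2 (81619 bases), in the longest class above. The medians of that class were -0.47 in iQNPs and -0.33 in TAPs. Snap25 (88017 bases) is in that class too and was higher. The part of gene span in these counts was not tested. None of the 8 was at 0 in any group. In bulk RNA, fewer cells of a type and less RNA per cell cannot be told apart, and the part of cell make-up in the stathmin values was not tested.

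The genes beside the stathmins on the chromosome did not pass the threshold in either knockdown comparison. Il7 and Adra1a, under 1 FPKM, could not be counted. Over all genes, 17.6% passed in either direction in iQNPs and 22.4% in TAPs. At these shares few of so small a set would pass, so this is not read as a result about the surroundings of the stathmins. Next to Stmn3, the helicase gene Rtel1 (6712 bases away) had 40.4 FPKM in knockdown iQNPs, against 50.8 in controls, and 45.6 in knockdown TAPs, against 61.4 in controls. On the other side Gmeb2 (16055 bases away) had 12.5 against 20.6 FPKM in iQNPs and 12.2 against 12.7 FPKM in TAPs. Next to Stmn1, Pafah2 (48243 bases) had 3.98 against 8.95 FPKM in iQNPs and 4.36 against 7.03 FPKM in TAPs, and Paqr7 (31347 bases) had 3.96 against 2.63 and 2.51 against 1.38 FPKM. None of these 4 passed the threshold, which Pafah2 missed by a small margin in iQNPs. Next to Stmn4, Trim35 (31176 bases) had 46.4 against 41.7 FPKM in iQNPs and 49.2 against 39.2 FPKM in TAPs, and Adra1a (375479 bases) was under 1 FPKM throughout. Next to Stmn2, which was under 1 FPKM, Il7 (1023396 bases) was under 1 FPKM too. The Notch target Hey1 (108472 bases) was not, at 78.5 against 112 FPKM in iQNPs and 8.23 against 5.05 FPKM in TAPs.

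The genes most like each stathmin over the 4 group values were sought among 8894 named genes, by the root mean square distance of log2(FPKM + 1) values centred on each gene's mean. Nearest to Stmn3 were Tmsb10, an actin-binding thymosin (distance 0.05), the nuclear receptor gene Nr2f6 (0.08) and Ndufa2, a subunit of respiratory complex I (0.09). Tmsb10 had 3338 FPKM in knockdown iQNPs, against 430.2 in controls, and 3023 in knockdown TAPs, against 488 in controls. All 3 span under 10000 bases, as does Stmn3. Nearest to Stmn1 were Rnpep (0.03), Taf5l (0.04) and Rpo1-3 (0.04), and among the nearest to Stmn4 were Gusb (0.03) and Dopey2 (0.04). Rnpep, Taf5l and Rpo1-3 span 18373, 18940 and 33390 bases, outside the span class of Stmn1. Gusb (13347 bases) is in the class of Stmn4 and Dopey2 (102215 bases) is not, so likeness did not go with span throughout. The distance was 0.83 between Stmn1 and Stmn3, 0.63 between Stmn1 and Stmn4 and 1.28 between Stmn3 and Stmn4.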

How the data were processed

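HCN cells gave 4 knockdown and 2 control libraries in each of 2 conditions, grouped by their labels, made from total RNA after removal of rRNA. The authors mapped paired-end reads to rn4 with TopHat2 and made 1 FPKM value per gene and group with Cufflinks and Cuffdiff, whose versions are not given in the sources used here. The deposited tables, marked as revised, also hold the authors' fold changes, test statistics, p-values, q-values and calls, which were not used. The tables hold no depth per library and the study gives only a range of reads over all libraries, so no interval was computed. The labels do not say whether libraries came from separate cultures.

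Differences were taken as log2(FPKM + 1), with a threshold of 1 in size (a fold of 2) among genes with at least 1 FPKM in either group. One gene whose status marked a failed estimate was left out. Alternatives varied the pseudocount (0.1), the minimum, the fold (1.5 and 3) and the scaling. After seeing the data, list counts under other scalings, span classes and the GC box, E-box, CCAAT and TATA motifs were added. The members and lists were chosen with earlier results of these data known. Lists covered tubulins, microtubule stabilisers, depolymerising and severing enzymes, kinases and phosphatases acting on stathmins, proliferation genes and cell type markers. Named genes were Rest, the members, up to 4 genes past the threshold per list by size of knockdown difference, the nearest gene on each side of a member, and the 3 genes most like each member, of which 1 is not reported here. Sox2, Vim, Hes1, Prom1, Nes, Fabp7, Tagln, Katna1, Spast, Snap25, Elavl4, Dcx and the control genes were named as examples after their values were seen. So were Ccna2, Cdk1 and Ctss. All 4 symbols matched the RefSeq gene table of GRCr8, and 2 matched its promoter windows. Calculations used Python 3.11.15, numpy 2.4.6 and pandas 2.3.3, and figures used matplotlib 3.10.9. The threshold and sum-scaling steps were tried on copies of the control values with known changes and no added noise, which checks only their arithmetic.

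The cell type marker lists other than the neuron list gave these counts past the threshold. Of 4 astrocyte markers with at least 1 FPKM, 0 were higher and 0 lower in knockdown iQNPs, and 0 and 1 in knockdown TAPs. Of 6 oligodendrocyte lineage markers, 1 was higher and 0 lower in each. Of 5 stem cell markers, 0 were higher in iQNPs and 1 in TAPs. Of the microglia and leukocyte markers only Ctss reached 1 FPKM, and it was higher in each, while the other 5 were under 1 FPKM in all groups. Tagln was higher in each, as 1 of 2 fibroblast and mural markers in iQNPs and 1 of 1 in TAPs. Over all genes, 14.4% were higher and 3.18% lower in iQNPs, and 15.4% were higher and 6.98% lower in TAPs. Counts from so few genes are not read as a result about a cell type. No endothelial marker reached 1 FPKM.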

Additional observations from a re-analysis of the deposited data

How the results depend on the processing

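No paired analysis was possible because the tables give 1 value per gene and group, and for the same reason leaving out each replicate was not run. Without a spread, an alternative value of a gene was set against a tolerance of 0.25 log2 units, chosen with the data known.

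The stathmins past the threshold in the deposited values were 1 higher in iQNPs and 2 in TAPs. A fold of 1.5 gave 2 in iQNPs (Stmn1 added) and 3 in TAPs (Stmn4 added), a fold of 3 gave 1 in TAPs, and the same sum of FPKM gave 1 in TAPs. Between conditions a fold of 1.5 gave 1 higher in control iQNPs (Stmn4) and 1 lower in knockdown iQNPs (Stmn1), against 0 each at a fold of 2. Stmn3 was higher under all alternatives in both tables.

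Over all genes, knockdown iQNPs had 1412 higher and 311 lower, with 2461 and 1781 at a fold of 1.5 and 660 and 18 at a fold of 3. A pseudocount of 0.1 gave 505 lower, the same sum of FPKM gave 767 higher and 2016 lower, and that sum without ribosomal protein genes gave 888 lower. Knockdown TAPs had 1470 and 667, with 2527 and 1956 at 1.5, 641 and 89 at 3, 661 and 2452 at the same sum, and 1097 lower without ribosomal protein genes. Control iQNPs over control TAPs had 1044 and 628, with 2100 and 1529 at 1.5 and 413 and 129 at 3. Knockdown iQNPs over knockdown TAPs had 941 and 407, with 2019 and 1218 at 1.5, 346 and 86 at 3, and 710 lower without ribosomal protein genes in the sum.

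Stmn2 lies under 1 FPKM, where the pseudocount sets its difference. In iQNPs that was 0.11 with 1 and 0.85 with 0.1.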
